A study of Homo sapiens with 7 samples.

Results

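The planar cell polarity genes were examined in the RNA-seq libraries of JMJD3c-hESCs. The set consists of 10 genes, VANGL1, VANGL2, CELSR1, CELSR2, CELSR3, PRICKLE1, PRICKLE2, ROR2, PTK7 and SCRIB, among 22670 gene entries per library. They were selected by gene name and not by a cutoff on their values, but with earlier results of these data known. All 10 were found. SCRIB has a second entry, on a patch sequence, that is listed at 0 in every library and was not used. SEES-3 is a human embryonic stem cell line, and JMJD3c is a shortened form of the histone demethylase JMJD3 (gene KDM6B) that holds the catalytic JmjC domain and removes the repressive mark H3K27me3. All cells carried the reverse Tet transactivator and a piggyBac vector and were kept in feeder-free maintenance medium. The JMJD3c line was sampled without doxycycline (Dox; Day 0) and after 1, 2, 3 and 4 days in 1 µg/ml Dox. The JMJD3c mut line, which carries the catalytically inactive form, was sampled untreated and on Day 4 with Dox. Both lines come from stable clones selected with puromycin, and the sources used here do not say how many clones each holds. Each of the 7 conditions had 1 library, so differences below could not be checked against replicates and are given without p-values.

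Planar cell polarity is the alignment of cells within the plane of a tissue. In vertebrates a core group of membrane and cytoplasmic proteins takes up opposite sides of neighbouring cells: Frizzled and Dishevelled on one side, Vangl and Prickle on the other, with the Celsr cadherins bridging both. The same proteins act in the branch of Wnt signalling that does not use β-catenin, in which WNT5A and WNT11 bind Frizzled together with ROR2, PTK7, RYK or glypicans and act on small GTPases and JNK. During gastrulation this branch guides convergent extension, the movement by which mesodermal and endodermal cells narrow and lengthen the embryo.

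The values are FPKM, fragments scaled by transcript length and by the number of mapped reads, which the authors deposited with the lower and upper bounds of a 95% interval from Cufflinks. These intervals describe the estimate in 1 library, not the variation between cultures. Following the cutoffs of the study, upregulated means a ratio above 2 and more than 4 FPKM with treatment, and downregulated a ratio below 0.5 and more than 4 FPKM without it. Log2 changes are on the scale of log2(FPKM + 1), which understates those of low genes. The range given beside a log2 change was computed from the opposite bounds of both intervals. Depth, estimated from the low values, was between 1780000 reads (Day 0) and 3660000 reads (untreated mutant line). It takes the commonest step between low values as 1 read, and with a step of 0.5 times that size every depth and every number of reads given here would be 2 times as large. KDM6B itself had 3.45 FPKM at Day 0, 158 to 282 FPKM on Days 1 to 4, and 2.40 and 454 FPKM before and after Dox in the line with the inactive form. The summed FPKM of 7 mesoderm and endoderm markers went from 5.49 at Day 0 to 15.8, 90.6, 189 and 299 on Days 1 to 4, and was 10.4 and 7.57 in the mutant line without and with Dox. Of these markers, 4 were listed at 0 at Day 0 and none from Day 2 on. CER1 alone made up 134 FPKM of the Day 4 sum. The 5 hESC markers ranged from 1366 to 1794 FPKM in their sum over the 7 libraries, with the highest value at Day 0 and the lowest at Day 4. The 3 neuroectoderm markers, mostly NES, summed to 109, 119, 132, 154 and 168 FPKM on Days 0 to 4 and to 86.4 and 116 FPKM in the mutant line without and with Dox. The sum was thus higher on each later day and also higher with Dox in the mutant line. This came from NES, already at 106 FPKM at Day 0, which had intervals apart from Day 0 on Days 2 to 4. The other markers did not rise steadily. PAX6 had 2.22, 9.62, 6.43, 2.72 and 5.91 FPKM on Days 0 to 4, with overlapping intervals, and SOX1 was at most 1.03 FPKM. The 4 trophoblast or amnion markers summed to at most 5.24 FPKM, with HAND1 at 0 throughout. Within this sum, GATA3 went from 0 at Day 0 to 2.68 FPKM at Day 4 and KRT7 from 3.98 to 1.06 FPKM. Intervals were apart for both, and neither passed the cutoffs for a call. In bulk RNA, more cells of a type and more RNA per cell cannot be told apart, and the part of the mesoderm, endoderm and neuroectoderm markers in the changes below was not tested.

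Of the 10 genes, VANGL1 and PRICKLE1 were upregulated at Day 4 relative to Day 0 and CELSR3 was downregulated. VANGL1 encodes a membrane protein of the core complex, PRICKLE1 its cytoplasmic partner, and CELSR3 a cadherin known for its part in axon guidance. Among all 10247 entries with more than 4 FPKM in either library, 5.87% were called up and 7.56% were called down in this comparison. The share called is thus 2 of the 9 planar cell polarity genes above that cutoff for upregulation and 1 of 9 for downregulation. The study had already named VANGL1 among the genes upregulated by JMJD3c, so its call repeats a known result and is no independent finding. The intervals of both libraries were apart for 4 of these 9 genes, VANGL1, VANGL2, CELSR2 and CELSR3, and for 12.1% of all entries above the cutoff. The catalytically inactive form gave no call: of the 7 genes above the cutoff in the mutant line, 0 were called up with Dox, against 1.25% of entries, and 0 were called down, against 1.53%. Intervals were apart there for 0 of the 7 genes and for 3.15% of entries.

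The 250 bases upstream of an annotated start are shown for the genes called at Day 4, VANGL1, CELSR3 and PRICKLE1, and for PRICKLE2, whose window differs from theirs. JMJD3c acts on H3K27me3, a mark found in hESCs mainly at promoters rich in CG dinucleotides, so CG is given in capitals. The sequences are those of RefSeq on GRCh38.p14, written 5′ to 3′ on the strand of the gene, while the deposited values use hg19, and no coordinate was converted. They lie at chr1:115641720-115641969 (plus strand) for VANGL1, chr3:48662887-48663136 (minus strand) for CELSR3, chr12:42483616-42483865 (minus strand) for PRICKLE1 and chr3:64268174-64268423 (minus strand) for PRICKLE2.
VANGL1: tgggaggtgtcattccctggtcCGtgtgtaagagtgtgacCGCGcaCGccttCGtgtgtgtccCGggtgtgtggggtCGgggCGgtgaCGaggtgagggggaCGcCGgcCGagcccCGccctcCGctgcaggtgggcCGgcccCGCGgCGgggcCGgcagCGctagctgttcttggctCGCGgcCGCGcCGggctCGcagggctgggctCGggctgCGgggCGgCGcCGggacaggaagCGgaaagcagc
CELSR3: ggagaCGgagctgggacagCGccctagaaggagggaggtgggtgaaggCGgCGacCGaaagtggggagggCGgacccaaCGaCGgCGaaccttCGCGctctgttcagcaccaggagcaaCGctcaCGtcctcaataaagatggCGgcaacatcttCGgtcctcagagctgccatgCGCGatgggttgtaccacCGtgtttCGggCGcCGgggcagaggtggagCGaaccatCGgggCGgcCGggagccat
PRICKLE1: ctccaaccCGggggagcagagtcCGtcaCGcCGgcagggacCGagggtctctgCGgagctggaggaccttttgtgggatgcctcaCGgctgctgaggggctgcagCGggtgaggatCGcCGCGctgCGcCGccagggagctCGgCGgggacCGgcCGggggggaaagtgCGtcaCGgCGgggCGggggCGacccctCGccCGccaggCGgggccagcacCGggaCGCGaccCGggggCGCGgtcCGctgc
PRICKLE2: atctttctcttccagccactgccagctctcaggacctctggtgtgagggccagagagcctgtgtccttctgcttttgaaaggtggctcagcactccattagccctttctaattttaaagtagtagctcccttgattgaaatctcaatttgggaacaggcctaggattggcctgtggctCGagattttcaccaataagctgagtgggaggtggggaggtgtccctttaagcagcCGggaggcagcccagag

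The VANGL1 window shown holds 32 CG dinucleotides, the PRICKLE1 window 32 and the CELSR3 window 25, and the PRICKLE2 window holds 2. The median over 35116 windows of the same length in the table is 11. Of the 10 genes, 8 have entries in this table, with 11 windows in all, and CELSR1 and SCRIB have none. Apart from PRICKLE2, whose second window holds 4, every window of these genes has between 23 and 32 CG. The gene called down thus has a CG-rich window, as have the genes called up and ROR2, PTK7 and VANGL2, which were not called at Day 4 against Day 0. Whether each window lies at the 5′ end of the quantified gene or at a start inside it was not checked. PRICKLE1 and PRICKLE2, on the minus strand, extend to bases 42984157 and 64431152 in hg19, so their windows may lie at inner starts. The low CG of the PRICKLE2 windows need not describe its main promoter. Letters of 4 binding motifs were also searched on both strands of the 11 windows, a choice made after the values were known: CTTTGA for TCF/LEF factors, TCACACCT for T-box factors, AGATAA for GATA factors and TTTCGCGC for E2F factors. These letters occur in 11.2%, 0.786%, 9.17% and 0.439% of all windows. The only match was to the T-box letters in the window of the second VANGL1 start, beginning at position -242 from that start (chr1:115642379-115642408, plus strand), which is shown with the match in capitals.
VANGL1 second start: ttccctgcTCACACCTcggacgtccctttc

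VANGL1 (ENSG00000173218) spans bases 116184574 to 116240845 of chromosome 1 in hg19. Its level was 5.13 FPKM at Day 0 and 6.84, 12.2, 13.1 and 14.1 FPKM on Days 1 to 4 of Dox. The mutant line gave 6.01 FPKM without Dox and 6.36 FPKM with Dox. All 3 libraries from Day 2 on were higher than the 4 others, and none of their intervals overlapped an interval of the untreated libraries or of the Dox-treated mutant line. At Day 4 the interval was 11.1 to 17.2 FPKM, against 2.79 to 7.47 at Day 0 and 4.35 to 7.67 in the untreated mutant line. Relative to Day 0, the ratios on Days 2 to 4 were 2.37, 2.55 and 2.75, and the log2 change at Day 4 was 1.30 (0.52 to 2.26). VANGL1 was the only member whose value was higher at each of the 4 daily steps. It passed the upregulation cutoff against all references: the ratio of Day 4 to the untreated mutant line was 2.35, and to the Dox-treated mutant line 2.22. In the mutant line the ratio with Dox was 1.06, a log2 change of 0.07 (-0.66 to 0.79). By an approximate conversion to reads, the values rest on about 77 reads at Day 0 and 291 at Day 4.

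**Figure D1:**
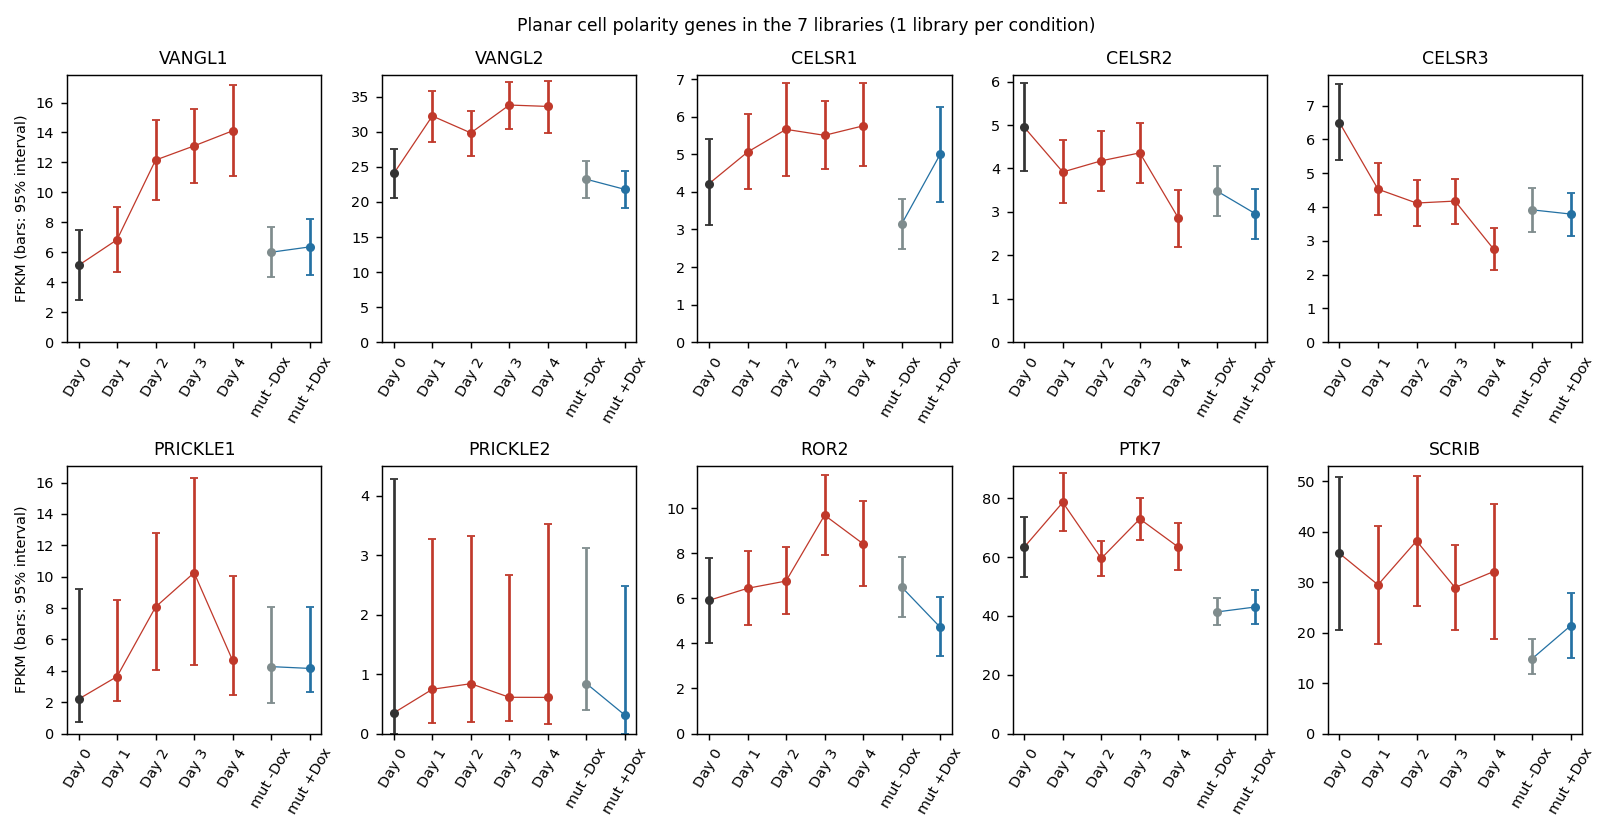
FPKM of the 10 planar cell polarity genes in each library, 1 panel a gene with its own axis from 0. Points are the deposited FPKM, bars the Cufflinks 95% interval within 1 library, red the Dox days of the JMJD3c line, black Day 0, and grey and blue the mutant line without and with Dox. VANGL1 goes from 5.13 to 14.1 FPKM with Dox and stays at 6.01 and 6.36 FPKM in the mutant line, while within the panel of PRICKLE1, and within that of PRICKLE2, the bars of all 7 libraries overlap.

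VANGL2, the paralog of VANGL1 and the form known for neural tube closure, was the more abundant of the pair. Its level was 24.1 FPKM at Day 0, 32.3, 29.8, 33.8 and 33.6 FPKM on Days 1 to 4, and 23.2 and 21.8 FPKM in the mutant line without and with Dox. All 4 Dox libraries of the JMJD3c line were thus above the 3 others, but by less than the cutoff ratio. At Day 4 the ratio to Day 0 was 1.40 and the log2 change 0.47 (0.11 to 0.83), with intervals that did not overlap. This also held at Days 1 and 3, whereas at Day 2 the intervals overlapped. Against the Dox-treated mutant line the ratio was 1.54, again with intervals apart. In the mutant line the log2 change with Dox was -0.09 (-0.41 to 0.23).

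Since FPKM is a level per length of transcript, the shares of paralogs can be set side by side. VANGL1 made up 17.6% of the summed VANGL1 and VANGL2 level at Day 0 and 17.5% at Day 1, and then 28.9%, 27.9% and 29.6% on Days 2 to 4. In the mutant line its share was 20.5% without Dox and 22.6% with Dox. The bounds of both intervals give 9.19% to 26.7% at Day 0 and 23.0% to 36.5% at Day 4, so the ranges overlap. The sum of both genes was 29.2 FPKM at Day 0, 47.7 FPKM at Day 4, and 29.2 and 28.2 FPKM in the mutant line. VANGL2 remained the main form in all 7 libraries.

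The 3 CELSR genes encode large cadherins with a seven-pass membrane domain that join core complexes across the border between cells. CELSR3 had 6.5 FPKM at Day 0, 4.53, 4.12, 4.18 and 2.76 FPKM on Days 1 to 4, and 3.92 and 3.79 FPKM in the mutant line without and with Dox. Day 0 was the highest of all 7 libraries and Day 4 the lowest. The ratio of Day 4 to Day 0 was 0.424 and the log2 change -0.997 (-1.47 to -0.55), with intervals apart on each of the 4 days. The size of this fall depended on the untreated library. The untreated mutant line was already at 0.603 of Day 0, with intervals apart, and against it the ratio of Day 4 was 0.704 with overlapping intervals, which is no call. With Dox the mutant line gave a ratio of 0.968.

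CELSR2, a close relative of CELSR3, was also lowest at Day 4 but was not called. It had 4.95 FPKM at Day 0, 3.92, 4.18, 4.36 and 2.86 FPKM on Days 1 to 4, and 3.48 and 2.96 FPKM in the mutant line without and with Dox. The Day 4 interval, 2.18 to 3.51 FPKM, lay below that of Day 0, 3.95 to 5.97 FPKM, but not below either interval of the mutant line. The ratio of Day 4 to Day 0 was 0.578 and the log2 change -0.62 (-1.13 to -0.14), short of the cutoff of 0.5.

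CELSR1, the family member known for epithelial polarity and neural tube closure, had 4.22 FPKM at Day 0, 5.06, 5.67, 5.51 and 5.76 FPKM on Days 1 to 4, and 3.14 and 5.0 FPKM in the mutant line without and with Dox. Its log2 change at Day 4 was 0.37 (-0.18 to 0.94) against Day 0. The mutant line with Dox gave a log2 change of 0.53 (-0.02 to 1.06), the highest of the 10 genes in that line, and the intervals overlapped in both comparisons. CELSR1 made up 26.9% of the summed level of the 3 cadherins at Day 0 and 50.6% at Day 4, and 29.8% and 42.5% in the mutant line before and after Dox. CELSR3 made up 41.5% at Day 0 and 24.2% at Day 4, and 37.2% and 32.3% in the mutant line. The sum of the family was 15.7 FPKM at Day 0, between 11.4 and 14.0 FPKM on the Dox days, and 10.5 and 11.8 FPKM in the mutant line. The ranges of the CELSR1 share from the interval bounds were apart between Day 0 (18.6% to 36.7%) and Day 4 (40.4% to 61.5%) and overlapped in the mutant line. CELSR3 had its lowest share at Day 4.

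**Figure D2:**
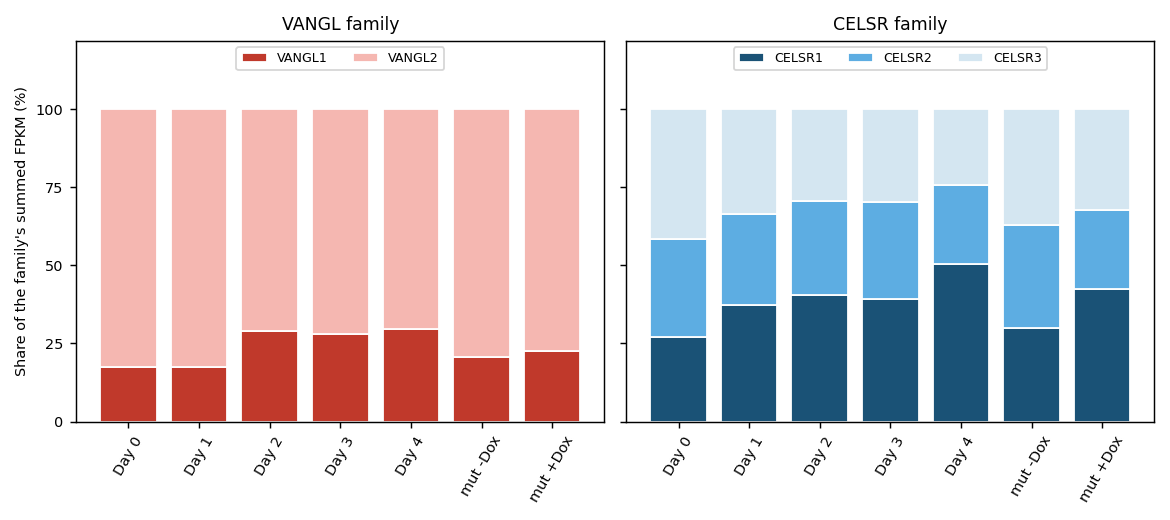
Share of each paralog in the summed FPKM of its family in the 7 libraries, as stacked bars in percent, with VANGL1 and VANGL2 on the left and the 3 CELSR genes on the right. VANGL1 goes from 17.6% at Day 0 to 29.6% at Day 4, and CELSR1 from 26.9% to 50.6%, with 42.5% in the Dox-treated mutant line.

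PRICKLE1, which binds Vangl proteins and opposes Dishevelled at the membrane, had 2.19 FPKM at Day 0, 3.63, 8.07, 10.2 and 4.66 FPKM on Days 1 to 4, and 4.26 and 4.15 FPKM in the mutant line without and with Dox. It passed the upregulation cutoff on Days 2, 3 and 4, with ratios to Day 0 of 3.68, 4.68 and 2.13. The highest value was at Day 3, and the Day 4 value was close to both libraries of the mutant line. Its intervals were wide, 0.718 to 9.24 FPKM at Day 0 and 2.48 to 10.02 FPKM at Day 4, and overlapped those of Day 0 on every day, so the log2 change of 0.83 at Day 4 has a range from -1.56 to 2.68. The untreated mutant line had 1.95 times the Day 0 value, and against it the ratio of Day 4 was 1.09, which is no call. Day 2 was not called against the untreated mutant line either. Day 3 was called up against both the untreated and the Dox-treated mutant line, with overlapping intervals. The Day 0 value rests on about 22 reads.

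PRICKLE2, its paralog, was the least abundant of the 10 genes in all libraries. It had 0.347 FPKM at Day 0, 0.744, 0.838, 0.610 and 0.608 FPKM on Days 1 to 4, and 0.841 and 0.309 FPKM in the mutant line without and with Dox. These values come to between about 6 and 30 reads, every interval overlapped every other, and a difference could not be detected at this depth. PRICKLE2 never reached the 4 FPKM needed for a call.

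The receptor ROR2 and the co-receptor PTK7 were not called against Day 0 on any day. ROR2 was called up when Day 3 was set against the Dox-treated mutant line. ROR2, a receptor tyrosine kinase that binds WNT5A, had 5.92 FPKM at Day 0, 6.45, 6.78, 9.70 and 8.43 FPKM on Days 1 to 4, and 6.51 and 4.73 FPKM in the mutant line without and with Dox. The 2 latest libraries of the JMJD3c line were the 2 highest. The ratio to Day 0 was 1.64 at Day 3, where the log2 change was 0.63 (0.02 to 1.31) and the intervals were just apart, and at Day 4 the log2 change was 0.45 (-0.22 to 1.17). Against the Dox-treated mutant line the Day 4 ratio was 1.78, with intervals apart.

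PTK7, a pseudokinase co-receptor of the pathway, was the most abundant member in all 7 libraries. It had 63.4 FPKM at Day 0, 78.6, 59.6, 73.0 and 63.4 FPKM on Days 1 to 4, and 41.3 and 43.0 FPKM in the mutant line without and with Dox. Day 0 and Day 4 had nearly the same value, and the log2 change between them was -3.14e-05 (-0.40 to 0.42). The difference that stood out was between the lines without Dox. The untreated mutant line had 0.652 of the Day 0 value, with intervals apart, and all 5 libraries of the JMJD3c line lay above both libraries of the mutant line.

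SCRIB, a scaffold protein that binds Vangl proteins and also acts in apicobasal polarity, showed the same split. It had 35.7 FPKM at Day 0, 29.5, 38.2, 28.9 and 32.1 FPKM on Days 1 to 4, and 14.8 and 21.4 FPKM in the mutant line without and with Dox. Within the JMJD3c line the log2 change at Day 4 was -0.15 (-1.39 to 1.11). The untreated mutant line stood at 0.415 of Day 0, which passes the downregulation cutoff between 2 libraries that had no Dox. Of the 10 genes, SCRIB was the only one past the cutoffs there, against a background of 7.01% called down and 2.78% called up. Intervals were apart between the untreated lines for CELSR3, PTK7 and SCRIB, 3 of the 9 genes above the cutoff, and for 13.7% of entries. Its ratio of 2.17 for Day 4 against the untreated mutant line, an upregulation call, therefore comes with a difference of similar size between the untreated lines.

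The levels fell into the same broad order throughout. PTK7 was highest in each library, followed by SCRIB and VANGL2, whose intervals overlapped at Day 0, and the other 7 genes were below 15 FPKM in all libraries. At Day 0 the intervals of neighbours in the order from CELSR3 (6.5 FPKM) through ROR2, VANGL1, CELSR2 and CELSR1 to PRICKLE1 (2.19 FPKM) overlapped, so these genes could not be ranked against their neighbours. Among all entries above 0, VANGL1 went from the 38.1st percentile to the 64.3rd, and CELSR3 from the 43.3rd to the 29.7th.

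At Day 1 none of the 8 genes above the cutoff was called, where 3.48% of entries were called up and 3.27% were called down, and the intervals of 2 genes, VANGL2 and CELSR3, were apart, against 3.99% of entries. At Days 2 and 3, 2 of the 9 genes above the cutoff were upregulated, VANGL1 and PRICKLE1, against 3.90% and 4.73% of entries called up, and none was downregulated, against 4.24% and 4.48%. Intervals were apart for 2 of the 9 genes at Day 2 (VANGL1 and CELSR3) and 4 of the 9 at Day 3 (VANGL1, VANGL2, CELSR3 and ROR2), against 7.23% and 8.79% of entries. The median log2 change of the 10 genes was 0.26, 0.23, 0.29 and 0.31 on Days 1 to 4, and -0.03 in the mutant line with Dox. Over all entries above the cutoff the medians of the same comparisons lay between -0.06 and 0.0039. At Day 4, 6 of the 10 values were higher than at Day 0 and 4 were lower. The lower ones include PTK7, whose log2 change of -3.14e-05 is too small to have a direction. The untreated mutant line against Day 0 gave a median of -0.19, smaller in size than the medians of the Dox days.

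With the untreated mutant line as the reference, 2 of the 7 genes above the cutoff were called up at Day 4, VANGL1 and SCRIB, against 7.05% of entries, and none was called down, against 3.90%. Intervals were apart for 5 of the 7, VANGL1, VANGL2, CELSR1, PTK7 and SCRIB, and for 18.6% of entries. Against the mutant line with Dox, where both lines had 4 days of Dox and only the JMJD3c line had the active enzyme, VANGL1 was the only one of 7 called up, against 6.56% of entries. None was called down, against 3.00%. The intervals were apart for VANGL1, VANGL2, ROR2 and PTK7 in that comparison, 4 of the 7 genes, and for 16.3% of entries. Both comparisons are also between lines that differ without Dox. For PTK7, apart in both, Day 4 was at the level of Day 0, and the untreated mutant line had 0.652 of the Day 0 value. The activity of the enzyme and the difference between lines cannot be told apart here. These comparisons share libraries, so they are not independent of each other.

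**Figure D3:**
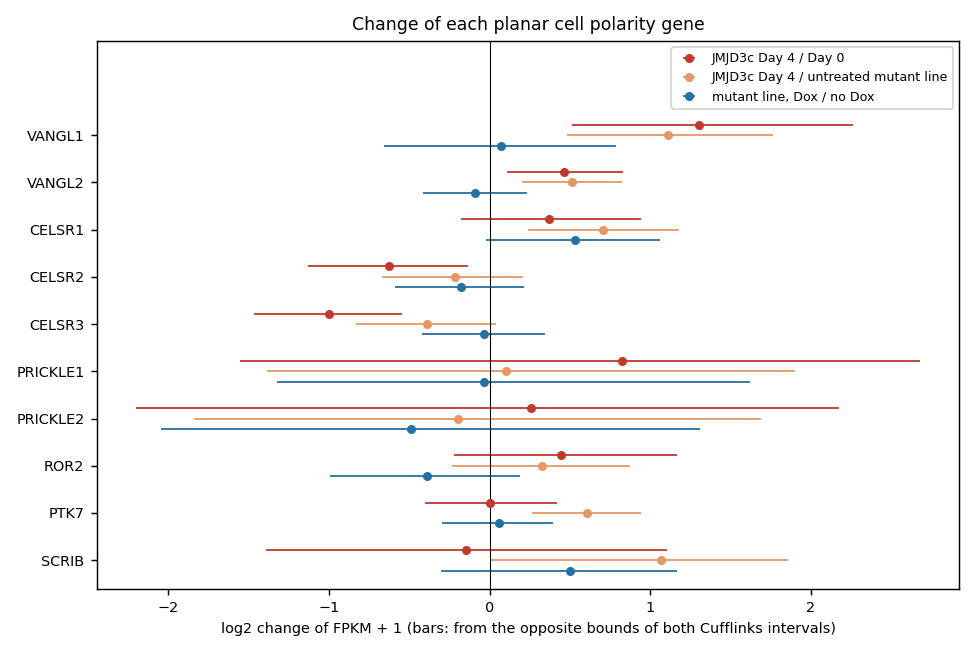
Log2 change of FPKM + 1 of each gene on the x axis for Day 4 against Day 0 (red), Day 4 against the untreated mutant line (orange) and the mutant line with against without Dox (blue). Lines span the change computed from opposite bounds of both Cufflinks intervals. For VANGL1 the ranges of both JMJD3c comparisons (1.30 and 1.11) lie clear of 0. They overlap the range of the mutant line (0.07, from -0.66 to 0.79). For SCRIB the red and orange points differ, -0.15 and 1.07.

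The wider pathway was followed in 43 further genes: ligands, Frizzled and other receptors, Dishevelled, cytoplasmic regulators, effectors, the Fat and Dachsous system and partners of SCRIB. At Day 4, 34 of them were above the cutoff, 6 were upregulated and 1 was downregulated, with the same backgrounds of 5.87% and 7.56%, and their median log2 change was 0.09. In the mutant line 31 were above the cutoff. None of these was upregulated, against 1.25% of entries, and 1 was downregulated, against 1.53%. The median log2 change of the 43 genes there was 0.06. Among the 6 receptors, GPC4 and RYK were upregulated relative to Day 0. GPC4, a glypican that assists Wnt ligands, had 42.7 FPKM at Day 0, 99.0, 111, 139 and 171 FPKM on Days 1 to 4, and 50.4 and 80.6 FPKM in the mutant line without and with Dox. Its ratio to Day 0 at Day 4 was 4.01. In the mutant line it was 1.60 with intervals apart, whereas those of VANGL1 overlapped there. RYK, a Wnt receptor with an inactive kinase domain, had 20.1 FPKM at Day 0 and 43.5 FPKM at Day 4, but 35.3 and 36.5 FPKM in the mutant line, and it was not called against either library of that line. ROR1, the paralog of ROR2, had 18.3 FPKM at Day 0, 21.8, 18.5, 14.7 and 11.7 FPKM on Days 1 to 4, and 30.1 and 24.3 FPKM in the mutant line without and with Dox. Its ratio of Day 4 to Day 0 was 0.636, with intervals apart but no call, and it was called down against the untreated (0.387) and the Dox-treated (0.479) mutant line. The untreated mutant line itself had 1.64 times the Day 0 value of ROR1. ROR1 lies outside the rule for named genes and was added after its values were seen.

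Of the 9 cytoplasmic and regulatory genes, DACT1, which binds Dishevelled and Vangl proteins, was upregulated, from 2.86 FPKM at Day 0 to 8.90 FPKM at Day 4, while the mutant line had 6.75 FPKM without and 3.58 FPKM with Dox. Of the 13 effectors, JUN, a transcription factor acted on by JNK, was upregulated from 11.4 to 24.7 FPKM, with 9.35 and 12.5 FPKM in the mutant line. INTU, an effector needed for cilia, went from 6.15 to 13.5 FPKM with overlapping intervals. FJX1, a member of the Fat and Dachsous system, went from 2.49 to 5.29 FPKM, also with overlapping intervals. The downregulated gene was LLGL2, a partner of SCRIB in apicobasal polarity, which had 37.4 FPKM at Day 0 and 13.6 FPKM at Day 4, with overlapping intervals and 17.0 FPKM in the untreated mutant line. The ligand WNT5A stayed between 3.85 and 5.29 FPKM in the JMJD3c line and was downregulated in the mutant line, where it was listed at 6.46 FPKM and then at 2.55 FPKM, with intervals apart. WNT11 and WNT4 were at most 1.18 FPKM in all libraries. None of the 3 Dishevelled genes and none of the 4 ligands was called at Day 4. Of the genes called at Day 4, GPC4, RYK, DACT1 and JUN had intervals apart from Day 0. Against the untreated mutant line, GPC4 and JUN were called up at Day 4, while DACT1 had a ratio of 1.32 with overlapping intervals and no call. JUN was not called against the Dox-treated mutant line.

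**Figure D4:**
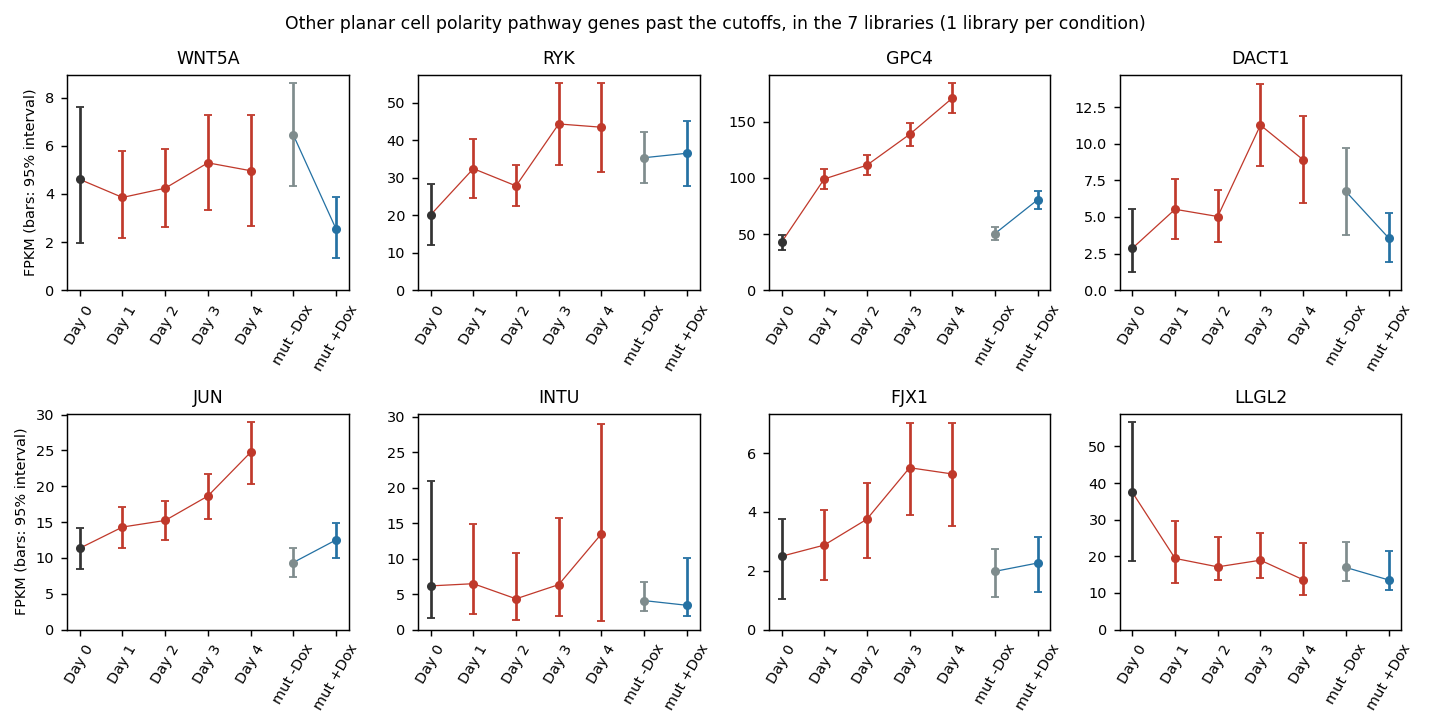
FPKM of the 8 further pathway genes called at Day 4 against Day 0 or in the mutant line with Dox, 1 panel a gene, with Cufflinks 95% intervals within 1 library as bars and colours as for the 10 genes. GPC4 climbs from 42.7 to 171 FPKM and is also higher with Dox in the mutant line (50.4 and 80.6 FPKM). RYK at Day 4 (43.5 FPKM) lies near both libraries of the mutant line.

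To describe which genes had a pattern like those called, the Pearson correlation of log2(FPKM + 1) over the 7 libraries was taken with each of 4557 genes above 4 FPKM in at least 1 library and with an SD of at least 0.3. The points share libraries and a common order of days, and no test was made. The genes most like VANGL1 were MMP2 (r = 0.995), a matrix metalloproteinase, CER1 (r = 0.991), a secreted inhibitor of Nodal and BMP signals, and SLC22A3 (r = 0.989), a cation transporter. CER1, listed at 0 at Day 0, reached 134 FPKM at Day 4, and MMP2 was at 17.8 and 42.9 FPKM. The Day 4 value of CER1 lies above its own Cufflinks interval of 101 to 132 FPKM. The genes most like CELSR3 were MMP11 (r = 0.988), CECR5 (r = 0.978) and PALM (r = 0.978), and those most like PRICKLE1 included GTDC1 (r = 0.967) and UNC5D (r = 0.951). Within the 10 genes, VANGL1 was most like VANGL2 (r = 0.792), PRICKLE1 (r = 0.791) and ROR2 (r = 0.783), and CELSR3 was most like CELSR2 (r = 0.854).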

How the data were processed

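RNA-seq values of 7 libraries, 1 per condition, were analysed. Per the labels and the methods of the study, poly(A) RNA was made into libraries with a directional kit and sequenced as 150-base single reads on a MiSeq. The reads were mapped to hg19 with TopHat2 2.0.13 and the authors deposited the FPKM per gene from Cufflinks 2.1.1 with the lower and upper 95% bounds, also in FPKM. CASAVA 1.4 is also named in the processing notes. Entries were joined by identifier and locus, and of entries that share a name the one with the highest mean FPKM was used. All 10 genes are listed as OK in all libraries and none is at 0. Ratios, log2 changes with a pseudocount of 1 and calls were computed in Python 3.11.15 (numpy 2.4.6, pandas 2.3.3, matplotlib 3.10.9) from the FPKM as deposited. No test was made, since no condition has a replicate, and p-values cannot be given. The code for calls and log2 changes was run on simulated data. Its genes had higher levels than most members, and its changes were larger than those of the members called at Day 4. It therefore says nothing about calls of low genes or near the cutoffs.

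The deposited FPKM hold no read counts. Low values of 813 genes with 1 exon and 1 transcript fall on steps of whole reads after 200 bases are subtracted from the length. Taking the commonest step as 1 read gave between 1780000 reads (Day 0) and 3660000 reads (mutant line without Dox), and 83.1% to 86.9% of the values between 0.4 and 6.5 reads lay within 0.1 of a whole read. This way of estimating was kept after others were compared on these data, some of which gave larger depths, and a step of 0.5 times the size taken as 1 read would make every depth and read number 2 times as large. Numbers of reads per gene use the length of the canonical transcript in GENCODE release 44 and are approximate. Neither the intervals nor the read numbers cover variation between cultures.

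The named genes are all 10 members, the listed pathway genes called at Day 4 or in the mutant line, and the 3 genes most like each member called, of which 1 is not reported here. The members, lists and cutoffs were chosen with earlier results of these data known, and the promoter features after the values of the members were known. Alternatives were run for the ratio, the FPKM cutoff, the use of the intervals, the pseudocount, library scaling, entries that share a name, the untreated reference and the treated day. ChIP and qRT-PCR data of the study were not used here.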

Additional observations from a re-analysis of the deposited data

Results flagged for a closer look

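For 5 of the 10 genes the log2 change with Dox had opposite signs in the JMJD3c line (Day 4 against Day 0) and in the mutant line, which flagged them. The difference between the lines was not tested, since each value rests on 1 library per condition. VANGL2, the main Vangl form, had 0.47 in the JMJD3c line and -0.09 in the mutant line. PRICKLE1, its cytoplasmic partner, had 0.83 and -0.03, and PRICKLE2 had 0.26 and -0.49. ROR2, the WNT5A receptor, had 0.45 and -0.39, and the scaffold SCRIB had -0.15 and 0.50. With the untreated mutant line as the reference in place of Day 0, PRICKLE2 had -0.20 and SCRIB 1.07, the same signs as in the mutant line, so these 2 differences in sign depend on the reference. The Cufflinks intervals were apart in 1 of these 10 comparisons, VANGL2 in the JMJD3c line. PTK7, with -3.14e-05 and 0.06, was left out because a change under 0.01 was taken to have no direction, a limit set after its value was seen.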

How the results depend on the processing

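VANGL1 stayed upregulated with rescaled libraries, with intervals apart required, with the untreated mutant line as the reference and with Day 3 as the treated library. The other alternatives could not remove its call. They loosened a cutoff, changed a pseudocount that calls do not use, or summed entries, of which VANGL1 has 1. PRICKLE1 lost its Day 4 call with intervals apart and with the untreated mutant line, and CELSR3 with the untreated mutant line and with Day 3. Requiring intervals apart left 1 gene called up at Day 4, and 1 gene called at Days 2 and 3 each. Genes called down at Day 4 numbered 2 with a ratio of 1.5 (CELSR2 joined CELSR3), 0 with the untreated mutant line as the reference and 0 with Day 3 as the treated library. A ratio of 1.5 also gave 1 call in the mutant line (CELSR1), 4 at Day 3, and 4 for Day 4 against the Dox-treated mutant line. At the ratio of 2, Day 3 against the Dox-treated mutant line gave 3 (VANGL1, PRICKLE1 and ROR2). Without an FPKM cutoff 1 gene was called in the mutant line (PRICKLE2) and 1 at Day 1. Of the 43 further pathway genes, those called down at Day 4 numbered 3 with a cutoff of 1 FPKM, 4 with none, 0 with intervals apart, 3 with a ratio of 1.5 and 0 with Day 3, and those called in the mutant line numbered 4 without a cutoff and 3 with a ratio of 1.5. The share of all entries called was not computed for the altered ratio, FPKM cutoffs and interval requirement, nor for Day 3 against the Dox-treated mutant line. The counts at those settings therefore have no background. No median of the 10 genes moved by more than 0.19, the size of the difference between the untreated libraries. Rescaling the libraries moved the median of all entries by less than 0.1 on the log2 scale and altered no call among the 10 genes. Of 150 recomputed log2 changes of single genes, 145 stayed within the range from the interval bounds. The other 5 were CELSR3 at Day 4 with the untreated mutant line as the reference (-0.39) or Day 3 as the treated library (-0.53), PTK7 against the untreated mutant line (0.60), and, with Day 3 set against the Dox-treated mutant line, CELSR2 (0.44) and CELSR3 (0.11). SCRIB went from -0.15 at Day 4 against Day 0 to 1.07 against the untreated mutant line, and PRICKLE2 from 0.26 to -0.20. The causes were not tested. No paired analysis was possible because each condition has 1 library and the labels give no shared replicate. PRICKLE2, with about 6 to 30 reads, is limited by depth.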
